A study of Mus musculus with 4 samples.

Results

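Epb42 and Sptb, genes for 2 proteins of the red cell membrane skeleton, were examined in bulk RNA sequencing of mouse bone. They were chosen by name and are 2 of the 1175 genes listed in the deposited table. The study compared wild-type mice kept to medium-intensity treadmill running over 5 weeks, starting at 8 weeks of age (Exercise), with wild-type mice that had not run (Sedentary). All mice were 13 weeks old, the marrow had been flushed out before the bones were ground, and there were 2 libraries per group. Since the labels name no separate animals, a p-value here reflects the spread between libraries alone, and that spread may be technical.

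The membrane of the red cell lies on a net of spectrin, long rods built from paired chains. Sptb encodes the erythroid beta chain. The net is tied to the membrane through ankyrin, encoded by Ank1, which binds beta spectrin on one side and the anion exchanger band 3 on the other. Protein 4.2, encoded by Epb42, is a relative of the transglutaminases without enzyme activity, and it binds to ankyrin and band 3 and steadies their contact. Protein 4.1, encoded by Epb41, joins spectrin to actin at the corners of the net. In humans, loss of any of these proteins other than 4.1 is a known cause of spherocytosis, in which red cells lose membrane and become round, whereas defects of protein 4.1 cause elliptocytosis. Erythroblasts make these proteins while they still have a nucleus, mainly in the bone marrow.

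Both genes lie on the minus strand of the mm10 genome. Epb42 (ENSMUSG00000023216.13) occupies chr2:121017891-121037072, 19182 bases, and its annotated transcript has 13 exons and a spliced length of 4115 bases. Sptb (ENSMUSG00000021061.15) occupies chr12:76580488-76710547, 130060 bases, and its annotated transcript has 36 exons and a spliced length of 10394 bases. No annotated gene overlaps Epb42. Sptb shares 1 base with Plekhg3 and contains the 282-base RNA gene Gm24010, both on the opposite strand and neither among the listed genes.

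The stretches upstream of both genes are shown because erythroid genes are typically bound there by the zinc finger proteins GATA1 and KLF1. They come from RefSeq on GRCm38.p6, the assembly of mm10, and are written 5′ to 3′ on the strand of the gene, ending at the base before the annotated start. Capitals mark matches to a GATA motif and to a KLF motif (CCNCNCCC). The GATA motif was spelled AGATAA or with other ends, as AGATAG, also as TGATAA, and also as TGATAG. Both motifs were searched on both strands, where N is any base.
Epb42, chr2:121037073-121037127: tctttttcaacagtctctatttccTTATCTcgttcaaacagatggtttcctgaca
Sptb, chr12:76710548-76710797: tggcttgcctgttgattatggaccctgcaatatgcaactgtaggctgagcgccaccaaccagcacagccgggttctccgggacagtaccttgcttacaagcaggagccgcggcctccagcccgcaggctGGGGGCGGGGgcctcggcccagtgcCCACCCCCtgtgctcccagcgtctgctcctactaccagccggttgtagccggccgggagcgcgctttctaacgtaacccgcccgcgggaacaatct

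The Epb42 stretch of 55 bases held 1 GATA match, on the opposite strand, and 0 KLF matches. The Sptb stretch of 250 bases held 0 GATA matches and 3 KLF matches, of which GGGGGCGG and GGGCGGGG overlap. Among 32851 RefSeq promoters, a GATA match stood in 7.51% of the 55-base and 26.5% of the 250-base windows, and a KLF match in 9.15% of the 55-base and 45.9% of the 250-base windows. The matches are a description of the letters. The 2 windows differ in length because the RefSeq window begins only 55 bases upstream of the GENCODE start of Epb42. The 55-base windows of the other promoters were likewise the first 55 bases of each RefSeq window, not the bases next to each RefSeq start.

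The counts of both genes were high in the table. Epb42 had 3182 and 9862 counts in the Exercise libraries, against 2205 and 2013 in the Sedentary libraries. Sptb had 5108 and 10608 counts in the Exercise libraries, against 3008 and 2626 in the Sedentary libraries. By mean count Sptb was 19th and Epb42 27th of the 1175 genes, and the counts of both were whole numbers in all 4 libraries.

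Every listed gene had a higher mean count in the Exercise libraries, so the direction of a count was fixed for any gene in the table. Both Exercise counts stood above both Sedentary counts for 99.7% of the listed genes, Epb42 and Sptb among them. The column totals were 1160883 and 2680636 in the Exercise libraries, against 594856 and 516963 in the Sedentary libraries. These totals cover the listed genes only, so the depth of the whole libraries is unknown. The mean count of Epb42 was 3.09-fold and that of Sptb 2.79-fold higher in Exercise than in Sedentary libraries, while the median over all listed genes was 3.82-fold and the lowest 2.48-fold.

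For this reason the levels below are shares, that is counts per 1000000 counts of the table. Epb42 had shares of 2741 and 3679 in the Exercise libraries, against 3707 and 3894 in the Sedentary libraries. Both Exercise shares lay below both Sedentary shares, but Exercise 2 lay only just below Sedentary 1, with counting intervals (95%, Poisson) of 3607 to 3752 in Exercise 2 and 3554 to 3865 in Sedentary 1. Exercise 1 stood apart from all other libraries. The mean share was 3210 ± 663 in Exercise and 3800 ± 132 in Sedentary libraries (SD, n = 2 each).

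Sptb had shares of 4400 and 3957 in the Exercise libraries, against 5057 and 5080 in the Sedentary libraries. The groups did not overlap, and the Sedentary libraries were nearly equal. The mean share was 4179 ± 313 in Exercise and 5068 ± 16.2 in Sedentary libraries (SD, n = 2 each). The order of the Exercise libraries was opposite for the 2 genes: Exercise 1 had the lower share of Epb42 and the higher share of Sptb.

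**Figure D1:**
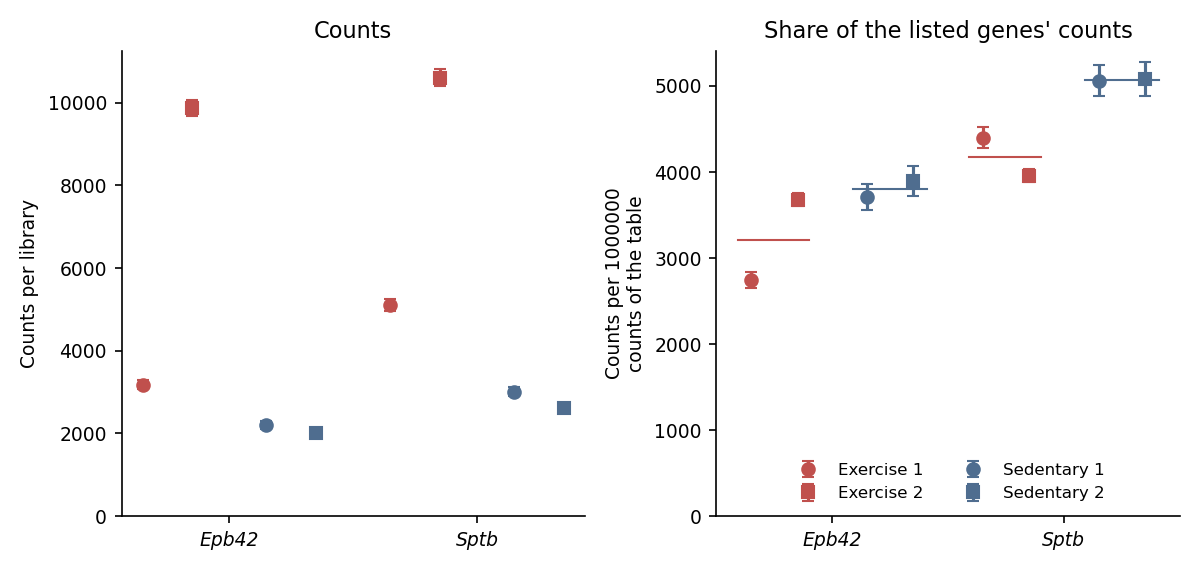
Counts (left) and shares per 1000000 counts of the table (right) of Epb42 and Sptb in each library, with 95% Poisson intervals; horizontal lines are group means (n = 2). Counts were higher in both Exercise libraries, while shares of both genes were lower in Exercise than in Sedentary libraries, by a narrow margin for Epb42 in Exercise 2.

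Neither difference in share passed edgeR's quasi-likelihood test. The log2 share ratio of Exercise over Sedentary was -0.24 ± 0.18 (SE) for Epb42, with a 95% interval of -0.70 to 0.22 (adjusted p = 0.547, edgeR quasi-likelihood test). For Sptb it was -0.28 ± 0.14 (SE), with a 95% interval of -0.63 to 0.075 (adjusted p = 0.456, edgeR quasi-likelihood test). On a linear scale the intervals run over folds of 0.614 to 1.16 for Epb42 and 0.645 to 1.05 for Sptb. At an adjusted p under 0.05, 0 of the 2 genes and 0.34% of the listed genes were called. By the cut-offs in the study's methods (unadjusted p under 0.05, absolute log2 ratio over 0.25), applied to the edgeR fit, 0 of the 2 genes were called, against 11.4% of the listed genes, of which 11.3% had a higher share in Exercise libraries and 0.0851% a lower one. The study applied these cut-offs with DESeq2. Here DESeq2 was run on the listed genes alone, so its size factors come from them and its calls may differ from the study's. With the DESeq2 Wald test Sptb was called as lower in Exercise libraries, just under the cut-off (log2 ratio -0.38, unadjusted p = 0.0459, adjusted p = 0.365, DESeq2 Wald test). Epb42 was not called (log2 ratio -0.36, unadjusted p = 0.0744, adjusted p = 0.433, DESeq2 Wald test). That test called 14 of the listed genes (1.19%) as lower and 142 (12.1%) as higher.

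Both genes stood low in the table's distribution of share ratios. The median log2 share ratio over the 1175 genes was 0.14, with quartiles at -0.10 and 0.63. A lower log2 ratio than that of Epb42 was seen for 92 genes (7.83%), and a lower one than that of Sptb for 54 genes (4.60%). A negative log2 share ratio was seen for 35.9% of the listed genes, and both Exercise shares lay below both Sedentary shares for 16.1% of them. These percentages cover genes of every count level, chosen by an unknown rule, and most had lower mean counts than Epb42 and Sptb. No set matched for count level was compared.

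The size of the difference rested on single Exercise libraries, in opposite ways for the 2 genes. Without Exercise 1 the log2 share ratio of Epb42 was -0.05 (adjusted p = 0.478, edgeR), and without Exercise 2 it was -0.47 (adjusted p = 9.33e-14, edgeR). For Sptb it was -0.36 without Exercise 1 (adjusted p = 6.87e-12, edgeR) and -0.20 without Exercise 2 (adjusted p = 0.000526, edgeR). In these fits the lone Exercise library is assumed to vary like the Sedentary pair, which varied little. Across the listed genes averaging at least 100 counts, the log2 shares of the Exercise libraries differed from each other with an SD of 0.699, and those of the Sedentary libraries with an SD of 0.275. With totals over the whole-count genes as the scaling, the Exercise and Sedentary shares of Epb42 overlapped, while those of Sptb did not.

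**Figure D2:**
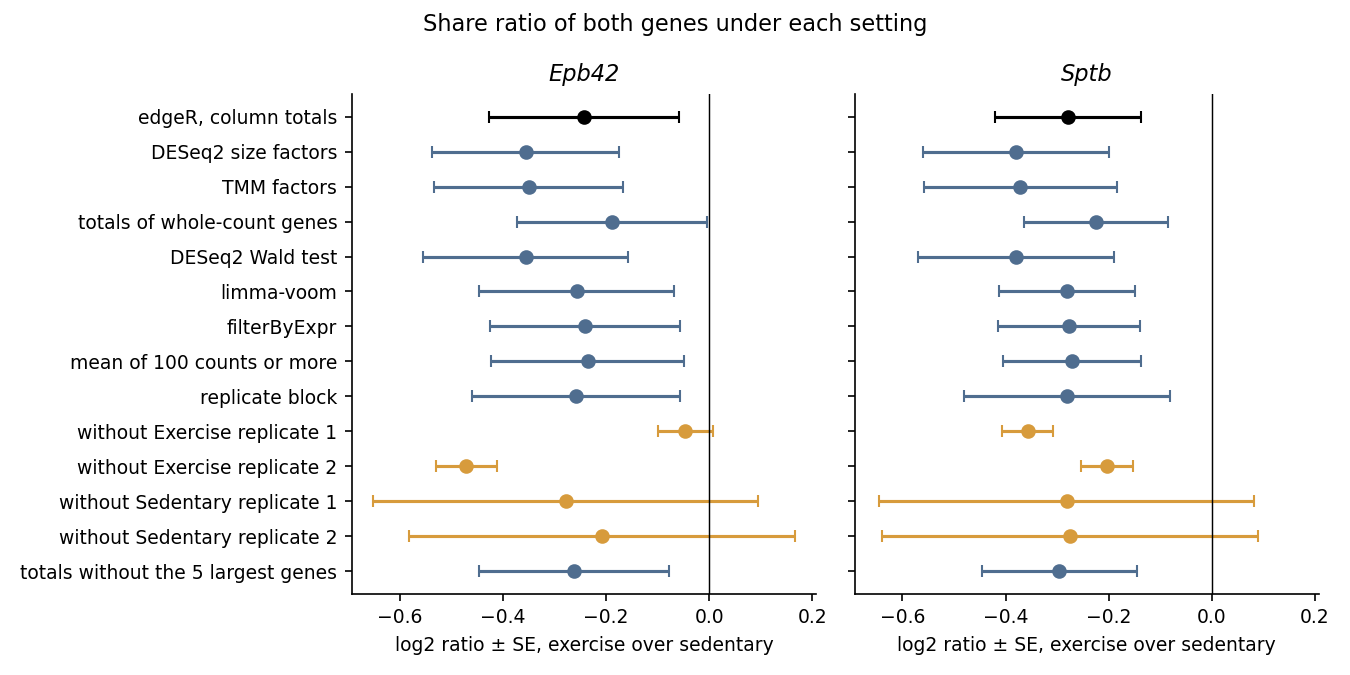
Log2 share ratio of Exercise over Sedentary for Epb42 (left) and Sptb (right) under each scaling, test and filter (blue), with each library left out (orange) and as reported (black); bars are SE. All points lie below 0, and leaving out an Exercise library moves Epb42 between -0.47 and -0.05 and Sptb between -0.20 and -0.36.

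The ratio of Sptb to Epb42 counts within a library does not depend on the scaling. There were 1.61 and 1.08 Sptb counts per Epb42 count in the Exercise libraries, against 1.36 and 1.30 in the Sedentary libraries. The Exercise libraries lay on either side of the Sedentary libraries, and their counting intervals (95%) of 1.54 to 1.68 and 1.05 to 1.11 did not reach the Sedentary intervals of 1.29 to 1.44 and 1.23 to 1.38. The mean log2 ratio was 0.39 ± 0.41 in Exercise and 0.42 ± 0.05 in Sedentary libraries (SD, n = 2 each), a difference of -0.02 that is far smaller than the spread of the Exercise pair. The smallest p of an exact permutation test between 2 and 2 libraries is 0.333, and none was run.

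Per kilobase of spliced transcript the order of the genes was reversed. Epb42 had shares per kilobase of 666 and 894 in the Exercise libraries, against 901 and 946 in the Sedentary libraries. Sptb had shares per kilobase of 423 and 381 in the Exercise libraries, against 487 and 489 in the Sedentary libraries. Sptb thus stood below Epb42 in every library on this scale. Whether counts grow with transcript length in these barcoded libraries is not given in the sources used here.

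**Figure D3:**
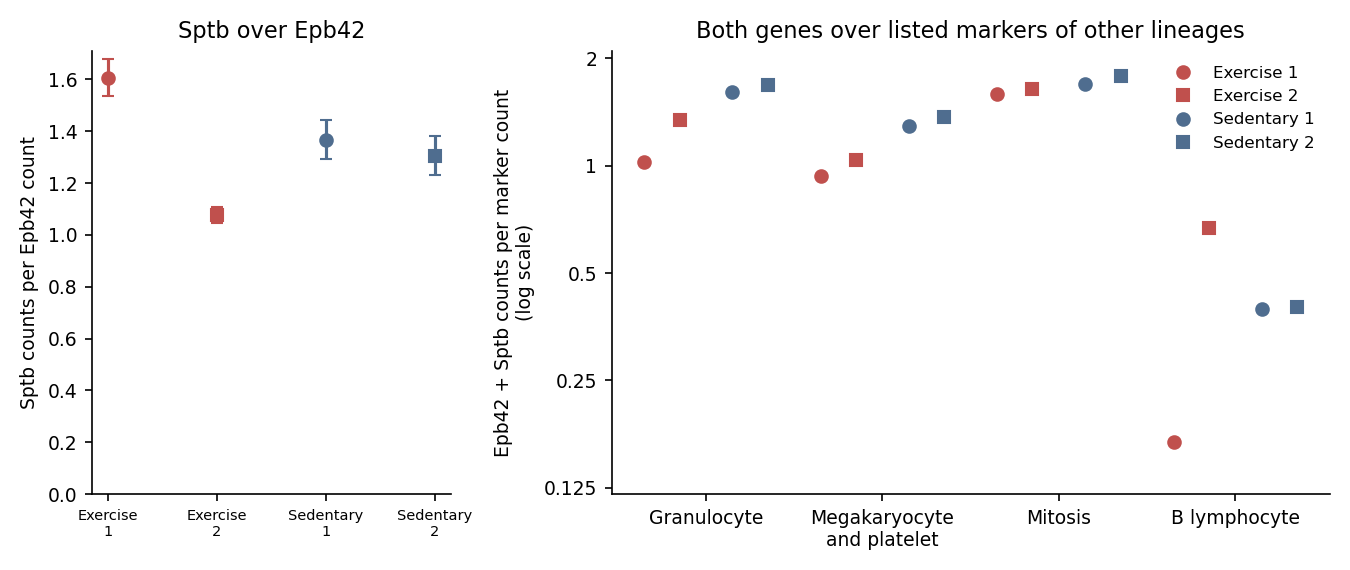
Left, Sptb counts per Epb42 count in each library with 95% intervals; right, summed Epb42 and Sptb counts per summed count of the listed markers of granulocytes, megakaryocytes and platelets, mitosis and B lymphocytes (log axis). The 2 Exercise libraries lie on either side of the Sedentary libraries for Sptb over Epb42 and for B lymphocyte markers, and below them for the other 3 marker lists.

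Among 28 genes of the red cell membrane skeleton and its anchors, 7 were listed: Sptb, Epb42, Epb41, Ank1, Kel, Xk and Aqp1. Of these 0 passed the adjusted threshold, 1 (Ank1) had a higher share at the study's thresholds in edgeR, against 11.3% of all listed genes, and 0 a lower one. With the DESeq2 Wald test 0 of the 7 passed them as higher and 1 (Sptb) as lower, against 12.1% and 1.19% of all listed genes. The log2 share ratio was negative for 5 of the 7, against 35.9% of all listed genes, and the Exercise shares of these 5 all lay below their Sedentary shares, against 16.1% of all listed genes. With totals over the whole-count genes as the scaling, Epb42 and Kel overlapped and 3 of the 7 lay below. No percentage over all listed genes was computed for this scaling. The median log2 ratio was -0.15 over the 7, against 0.14 over all listed genes. Their summed share was 27359 and 28615 in the Exercise libraries, against 30686 and 30768 in the Sedentary libraries.

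The other members with a negative ratio were Epb41, Aqp1 and Kel. Epb41 had shares of 6332 and 6137 in the Exercise libraries, against 6637 and 6710 in the Sedentary libraries (log2 ratio -0.10 ± 0.14, SE). Aqp1, the water channel of the red cell, had shares of 8613 and 8452 in the Exercise libraries, against 10001 and 9881 in the Sedentary libraries (log2 ratio -0.22 ± 0.14, SE). Kel, which encodes the Kell blood group protein, had shares of 2307 and 2742 in the Exercise libraries, against 2826 and 2776 in the Sedentary libraries (log2 ratio -0.15 ± 0.15, SE). None of these 3 passed either threshold, with edgeR or the DESeq2 Wald test.

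Ank1, the gene of the ankyrin that binds the products of both genes, differed from them in direction. Its shares were 2701 and 3131 in the Exercise libraries, against 2185 and 2135 in the Sedentary libraries, without overlap. The log2 share ratio was 0.43 ± 0.15 (SE; adjusted p = 0.365, edgeR quasi-likelihood test). There were 0.986 and 0.851 Ank1 counts per Epb42 count in the Exercise libraries, against 0.590 and 0.548 in the Sedentary libraries. Per Sptb count there were 0.614 and 0.791 Ank1 counts in the Exercise libraries, against 0.432 and 0.420 in the Sedentary libraries. Both ratios were therefore higher in each Exercise library than in either Sedentary library. The Ank1 counts were fractional, the gene overlaps the antisense gene Gm15816 and the microRNA gene Mir486, and it no longer passed the study's thresholds with DESeq2 size factors (log2 ratio 0.32), TMM factors, the DESeq2 Wald test or the replicate block, or without either Sedentary library. Whether reads of overlapping genes or other transcripts of the locus contributed was not tested.

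Xk, which encodes the partner of Kell, had the lowest level of the 7. Its shares were 264 and 517 in the Exercise libraries, against 274 and 292 in the Sedentary libraries (log2 ratio 0.47 ± 0.34, SE). The groups overlapped, and Exercise 2 alone was high.

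As parts of the 7-gene sum, Epb42 made up 10.0% and 12.9% in the Exercise libraries, against 12.1% and 12.7% in the Sedentary libraries. Sptb made up 16.1% and 13.8% in the Exercise libraries, against 16.5% and 16.5% in the Sedentary libraries. Ank1 made up 9.87% and 10.9% in the Exercise libraries, against 7.12% and 6.94% in the Sedentary libraries. Only for Sptb and Ank1 of these 3 did the Exercise and Sedentary percentages not overlap.

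Relatives of the 2 genes were nearly all outside the table. Of 21 spectrin, ankyrin, protein 4.1 and transglutaminase relatives only Sptan1, a spectrin gene of other tissues, was listed, with shares of 1511 and 1782 in the Exercise libraries, against 1698 and 1840 in the Sedentary libraries (log2 ratio -0.10 ± 0.15, SE). The groups overlapped.

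The rest of the erythroid programme was also thinly covered. Globin genes, the haem enzyme gene Alas2 and the regulators Klf1 and Gata1 were not among the listed genes. An erythroid source of the signal thus rests mainly on membrane and maturation genes and was not tested. Over all 5 erythroid lists together 18 of 123 genes were listed, with 7 higher and 11 lower log2 share ratios, a median of -0.12, and 0 past the adjusted threshold. Both Exercise shares lay below both Sedentary shares for 9 of the 18 and above them for 5, against 16.1% and 36% of all listed genes. Of the 9, Epb42 and Kel overlapped with totals over the whole-count genes as the scaling. Those of the 9 outside the membrane list were not examined with it. The percentages again cover genes of every count level. The summed share of the 18 was 51331 and 50156 in the Exercise libraries, against 55420 and 54996 in the Sedentary libraries. These values are shares of selected genes, and the depth of the whole libraries is unknown. In bulk tissue, changes in erythroid cell number, in RNA per erythroid cell or in counts of other listed genes cannot be told apart.

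Of 27 haemoglobin and haem genes only Cpox, an enzyme of haem synthesis, was listed. Its shares were 3206 and 3066 in the Exercise libraries, against 3769 and 3922 in the Sedentary libraries (log2 ratio -0.29 ± 0.13, SE; adjusted p = 0.452, edgeR). The groups did not overlap, the counts were fractional, and with the DESeq2 Wald test Cpox, like Sptb, passed the study's thresholds as lower (log2 ratio -0.40, adjusted p = 0.327, DESeq2). Of 30 genes of late erythroid maturation 6 were listed, 3 with a higher and 3 with a lower log2 ratio. Tmcc2 had shares of 7277 and 7005 in the Exercise libraries, against 8358 and 8213 in the Sedentary libraries (log2 ratio -0.21 ± 0.14, SE). The other 5 ran between Rnf10 at -0.24 ± 0.19 and Rnf123 at 0.24 ± 0.13 (log2 share ratio, SE), with Ypel4 at -0.08, Ulk1 at 0.00 and Trim58 at 0.19. Ulk1, which encodes a kinase that starts autophagy, had a negative log2 ratio with DESeq2 size factors (-0.10).

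Among erythroid transcription factors 2 of 20 were listed. Zfpm1, which encodes the GATA1 partner FOG1, had shares of 1847 and 1235 in the Exercise libraries, against 1210 and 1017 in the Sedentary libraries (log2 ratio 0.47 ± 0.23, SE). The shares did not overlap, though by little in Exercise 2. Zbtb7a, a repressor of fetal globin in human cells, had a log2 share ratio of -0.14 ± 0.14 (SE). For erythropoietin signalling 2 of 18 were listed, Stat5a at -0.18 ± 0.17 and Sh2b3, a brake on the receptor's kinase, at 0.18 ± 0.15 (log2 share ratio, SE). None of these 4 genes passed either threshold, with edgeR or the DESeq2 Wald test.

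**Figure D4:**
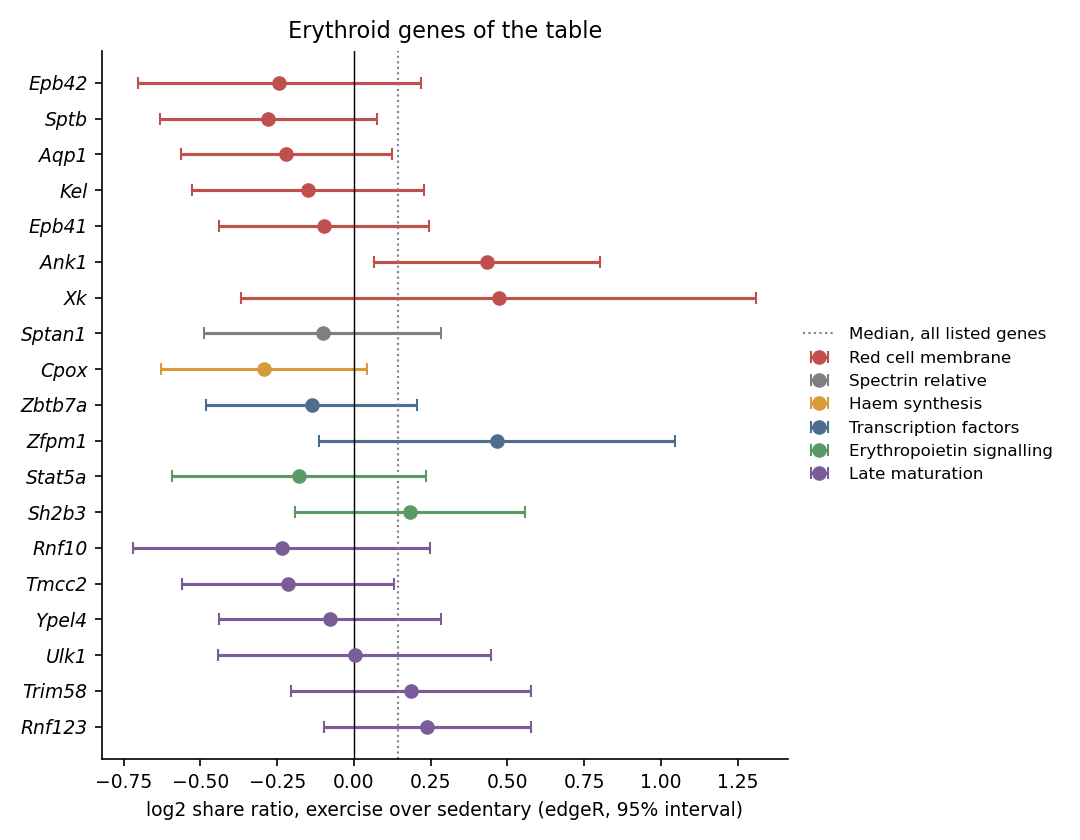
Log2 share ratio of Exercise over Sedentary (edgeR, bars are 95% intervals, n = 2 libraries per group) for the 18 listed erythroid genes and the spectrin relative Sptan1, coloured by list. Epb42 (-0.24) and Sptb (-0.28) lie at the low end with Cpox (-0.29), Rnf10 (-0.24), Aqp1 (-0.22) and Tmcc2 (-0.21). Only the interval of Ank1 does not reach 0. The dotted line marks the median of all listed genes, 0.14.

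Markers of other cells in the sample were set beside both genes, and so were genes of mitosis, which mark dividing cells rather than 1 cell type. Only markers in the table could be used, and an unknown rule chose them. Every listed gene had a higher mean count in the Exercise libraries, so these ratios do not give the level of a whole lineage. The summed counts of Epb42 and Sptb per count of the granulocyte markers Csf3r and Padi4 were 1.02 and 1.35 in the Exercise libraries, against 1.61 and 1.68 in the Sedentary libraries. Per count of 6 megakaryocyte and platelet genes (Gp1ba, Vwf, F5, Alox12, Nbeal2 and Tubb1) they were 0.937 and 1.04 in the Exercise libraries, against 1.29 and 1.37 in the Sedentary libraries. Per count of 4 genes of mitosis (Kif23, Hmmr, Cdca8 and Bub1b) they were 1.59 and 1.64 in the Exercise libraries, against 1.69 and 1.79 in the Sedentary libraries. Relative to the summed count of each of these lists, both genes together were thus lower in the Exercise libraries. The log2 differences were -0.49, -0.43 and -0.11, without overlap. Among the mitosis genes Kif23 (-0.23), Cdca8 (-0.26) and Hmmr (-0.17) had negative log2 share ratios, and Bub1b (0.05) a positive one. Ratios to single markers were not computed.

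B lymphocyte markers did not follow this order. The summed counts of Epb42 and Sptb per count of Ighm, Pax5, Rag1 and Cd22 were 0.168 and 0.670 in the Exercise libraries, against 0.397 and 0.403 in the Sedentary libraries. The spread lay mainly in Ighm, the immunoglobulin heavy chain of IgM, with shares of 41148 and 9160 in the Exercise libraries, against 20194 and 20392 in the Sedentary libraries. Exercise 1 was thus high in Ighm and low in Epb42. The other 3 markers ran opposite to Ighm within the Exercise pair. Pax5 had shares of 620 and 789 in the Exercise libraries, against 770 and 809 in the Sedentary libraries. Rag1 had shares of 334 and 889 in the Exercise libraries, against 578 and 503 in the Sedentary libraries. Cd22 had shares of 489 and 567 in the Exercise libraries, against 531 and 584 in the Sedentary libraries. All 3 were thus lower in Exercise 1 than in Exercise 2, as Epb42 was. Per summed count of all 4 marker lists the ratio was 0.116 and 0.263 in the Exercise libraries, against 0.222 and 0.229 in the Sedentary libraries, a log2 difference of -0.37 that was -0.96 without Exercise 2 and 0.22 without Exercise 1. Of the 15 B lymphocyte genes 4 were listed, with a summed share of 42592 and 11405 in the Exercise libraries, against 22074 and 22288 in the Sedentary libraries, and their part in the result was not tested.

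The other lists were covered as follows. Of 20 granulocyte genes 2 were listed, with a summed share of 6978 and 5669 in the Exercise libraries, against 5436 and 5334 in the Sedentary libraries. Of 18 megakaryocyte and platelet genes 6 were listed, with a summed share of 7620 and 7354 in the Exercise libraries, against 6779 and 6557 in the Sedentary libraries. Both sums were thus higher in each Exercise library, but not every member was. In the megakaryocyte and platelet list 4 log2 share ratios were positive and 2 negative, with a median of 0.40 and a highest of 2.13. At the study's thresholds in edgeR 3 of these 6 had a higher share, against 11.3% of all listed genes, and 0 a lower one. Of the 6, 0 passed the adjusted threshold. Alox12, a platelet lipoxygenase gene, had shares of 2217 and 1415 in the Exercise libraries, against 2227 and 2308 in the Sedentary libraries (log2 ratio -0.32 ± 0.24, SE), and Vwf, the gene of von Willebrand factor, had a log2 share ratio of -0.23 ± 0.18 (SE). F5, the gene of clotting factor V, had shares of 1046 and 1451 in the Exercise libraries, against 745 and 741 in the Sedentary libraries (log2 ratio 0.75 ± 0.20, SE). Among the granulocyte genes Csf3r was higher in both Exercise libraries, while Padi4 had shares of 2240 and 1487 in the Exercise libraries, against 1666 and 1592 in the Sedentary libraries, and so overlapped. The 4 listed of 20 genes of mitosis summed to 4492 and 4646 in the Exercise libraries, against 5175 and 5021 in the Sedentary libraries, and so stood lower with both genes. One marker each was listed for macrophages (Siglec1, log2 share ratio 0.26) and for bone-forming cells (Sost, the osteocyte gene for sclerostin, log2 share ratio 0.09), and 0 for T and NK cells, osteoclasts, skeletal muscle, endothelium and cartilage. Sptb is also active in skeletal muscle, whose markers were not among the listed genes. The part of these cell types in the result was not tested.

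The listed genes with the most similar pattern over the 4 libraries were found by the root mean square difference of centred log2 shares, among 1004 other genes averaging 100 counts or more. For Epb42 they were mt-Co1 (0.022), Vps13d (0.029), Gpatch8 (0.041), Mycbp2 (0.042) and Lyst (0.049). For Sptb they were Tbc1d8 (0.010), Cd300lb (0.017), Pcyox1 (0.020), Abr (0.020) and Sorl1 (0.023). The lists share no gene. With 4 libraries and 1004 genes, close neighbours are found for many patterns, and nothing follows from them about function.

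The nearest neighbour of Epb42, mt-Co1, is the mitochondrial gene of a subunit of cytochrome c oxidase. There were 32.0 and 32.6 Epb42 counts per 1000 mt-Co1 counts in the Exercise libraries, against 32.0 and 33.3 in the Sedentary libraries. Sptb had 51.4 and 35.0 counts per 1000 mt-Co1 counts in the Exercise libraries, against 43.6 and 43.4 in the Sedentary libraries. Epb42 thus kept nearly 1 ratio to mt-Co1 over all 4 libraries, and Sptb did not. The counts of mt-Co1 were fractional.

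The 2 genes were not close to each other in pattern. Sptb was 308th in the order of likeness to Epb42, and Epb42 was 421st in that to Sptb (difference 0.206). Of the other membrane genes Kel stood nearest to Epb42 (37th) and Aqp1 nearest to Sptb (35th). The patterns parted in the Exercise pair, in which the log2 share of Exercise 2 over Exercise 1 was 0.42 for Epb42 and -0.15 for Sptb, against 0.07 and 0.01 for Sedentary 2 over Sedentary 1.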

How the data were processed

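Polyadenylated RNA of flushed bone was sequenced by a Smart-seq2 method with molecular barcodes. The submitters' processing notes name STAR, HTSeq and mm10, and the study's methods state that duplicates were removed by barcode. For versions, annotation and strand use the sources used here give nothing. One table of estimated counts of 1175 genes was deposited by the authors, not scaled to depth, whole in all 4 libraries for 596 genes (tolerance 1e-09) and fractional for 579. The rule that chose the genes and the step that gave fractions are not given.

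Counts were rounded and fitted with edgeR 4.0.16 (quasi-likelihood test, R 4.3.3, limma 3.58.1), two-sided, with column totals as library sizes and Benjamini-Hochberg adjustment over 1175 genes. Adjusted p-values are conditional on the unknown selection. DESeq2 1.42.0 was an alternative. The tests were run on simulated data first. Intervals of counts and ratios cover counting error only. The genes and lists were chosen with earlier results of these data known. Named were both genes, every listed member of 6 erythroid and relative lists, the 4 listed markers of highest level in each of 11 other lists, and the 5 genes most like each. Coordinates are from GENCODE M21, in which 1163 symbols matched, and sequences are from RefSeq.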

Additional observations from a re-analysis of the deposited data

How the results depend on the processing

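The log2 share ratios of Epb42 and Sptb were negative under 13 of 13 alternatives each. Over the 9 that kept every library, Epb42 ran from -0.36 to -0.19 (adjusted p 0.414 to 0.667) and Sptb from -0.38 to -0.22 (adjusted p 0.365 to 0.648). Among these only Sptb with the DESeq2 Wald test, run here on the listed genes alone, passed the study's thresholds. With 1 library left out Epb42 ran from -0.471 to -0.046 and Sptb from -0.357 to -0.204, and the Sptb over Epb42 difference from -0.31 to 0.27. With the replicate number as a block the ratios were -0.2584 for Epb42 and -0.2805 for Sptb. Same-numbered libraries did not deviate together (correlation -0.073), so the numbers were not taken as pairs.

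Counts of listed genes moved more. Genes with a higher share at the study's thresholds were 133, 67 with limma-voom and 44 to 467 with 1 library left out. Genes with a lower share were 1, 21 with DESeq2 size factors, 11 with TMM factors, 14 with the Wald test, 0 with whole-count totals, 0 with the replicate block and 0 to 183 with 1 library left out. Genes past the adjusted threshold were 4, 12 with the replicate block, 36 with the Wald test, 0 with limma-voom and 0 to 651 with 1 library left out. The cause was not tested.

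Of the other named genes, some changed sign under settings applied after seeing the data. Ulk1 gave -0.1008 with size factors, -0.093 with TMM, -0.1007 with the Wald test and -0.016 without the 5 largest genes in the totals. In the same order of the first 3, Nbeal2 gave -0.0601, -0.0519 and -0.0603, Bub1b -0.0561, -0.0481 and -0.0562, and Sost -0.0106, -0.0023 and -0.0104. Ighm gave -0.0355 with limma-voom and -0.0636 with the block. With 1 library left out the ratios that changed sign ran as follows: Xk -0.0966 to 0.8695, Sptan1 -0.2256 to 0.0128, Ulk1 -0.1591 to 0.1815, Ypel4 -0.1687 to 0.005, Padi4 -0.1322 to 0.4583, Siglec1 -0.4512 to 0.7243, Ighm -1.1476 to 1.0199, Rag1 -0.6962 to 0.7138, Cd22 -0.1868 to 0.026, Nbeal2 -0.0228 to 0.1031, Hmmr -0.4908 to 0.0876, Bub1b -0.0214 to 0.1203 and Vps13d -0.4057 to 0.0042. The number of libraries, 2 per group, and the unknown depth limit all of these values.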
